A study of Mus musculus with 18 samples.

Results

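The 31 genes described here encode enzymes, carriers and regulators of the tricarboxylic acid (TCA) cycle and of the entry of pyruvate and of glutamine-derived carbon into it. They were chosen by gene name for their place in these pathways, with earlier results of these data known. All 31 were found by Ensembl ID, through GENCODE M21 symbols, among the 55487 genes of the deposited count table. All 31 also passed the filter on low counts, together with 13150 genes in all. Their transcripts were measured by RNA sequencing in 18 libraries of CD8+ T cells, taken from lymph nodes and spleen of C57BL/6J mice of wild-type genotype. The sources used here give no allele, transgene, age or sex. The cells had been sorted by surface 41BB (CD137), the product of Tnfrsf9 and a receptor that activated T cells display and that costimulates them, into 41BB+ cells, called Tpam in the study, and 41BB- cells, called conventional. RNA was taken from uncultured cells at 0 h, or after 24 h or 72 h in IMDM medium with serum and beads carrying antibodies to CD3 and CD28. The 6 groups of 3 libraries were therefore 41BB+ and 41BB- cells at each of the 3 times, and the later times differ from 0 h in culture as well as in stimulation. The triplicates are described as biological. The sources used here do not say whether each is 1 animal or a pool. Xist and Y-linked counts, given below, show RNA of both sexes in some libraries, which 1 animal would not give.

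The TCA cycle oxidises acetyl groups in the mitochondrial matrix and feeds electrons to the respiratory chain. Pyruvate enters through the mitochondrial pyruvate carrier and the pyruvate dehydrogenase complex, which kinases switch off and a phosphatase switches on. Glutamine-derived glutamate enters as oxoglutarate through glutamate dehydrogenase or the aminotransferases, and citrate that leaves the matrix supplies acetyl-CoA for lipid synthesis and histone acetylation. In T cells, activation through the T cell receptor is known to raise mitochondrial metabolism as well as glycolysis.

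The libraries held between 3085241 and 4239795 counts, with a median of 3524157.5, and the 31 genes took 0.168% to 0.318% of them. Levels are given as CPM, counts scaled to a library total of 1e+06, and a value with ± is the mean and SD of 3 libraries. Differences between groups are log2 fold changes from edgeR's quasi-likelihood test with Benjamini-Hochberg adjustment over all 13150 genes tested. A gene was called higher or lower at an adjusted p under 0.05. The sort marker Tnfrsf9 stood at 373, 421 and 374 CPM in 41BB+ libraries 1 to 3 at 0 h, against 4.96, 6.81 and 8.45 CPM in 41BB- libraries 1 to 3. At 24 h and 72 h the labels refer to the population sorted before culture, and Tnfrsf9 stood at 18.4, 33.8 and 11.6 CPM in 41BB+ libraries and 44, 51.7 and 61.3 CPM in 41BB- libraries at 72 h. Cd8a and Cd8b1 were read in every library, Cd8a at 462, 579.9 and 478 CPM in 41BB+ cells and 593, 621 and 699 CPM in 41BB- cells at 0 h. In bulk samples such as these, fewer cells of a type and less RNA per cell cannot be told apart.

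Summed over the 31 genes, the level at 0 h was 2552 ± 109 CPM in 41BB+ cells and 1706 ± 30.4 CPM in 41BB- cells. At 24 h it was 3154 ± 29.9 CPM in 41BB+ cells and 3090.1 ± 58.9 CPM in 41BB- cells, and at 72 h 1901 ± 119 CPM in 41BB+ cells and 2541 ± 30.6 CPM in 41BB- cells. The libraries of both populations were thus apart at 0 h, close together at 24 h and apart again at 72 h with the order turned round. The 26 genes of mitochondrial proteins and the 5 genes of cytosolic proteins (Aco1, Idh1, Mdh1, Got1 and Acly) showed this order alike. Sums are given as a description, with no test.

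**Figure D1:**
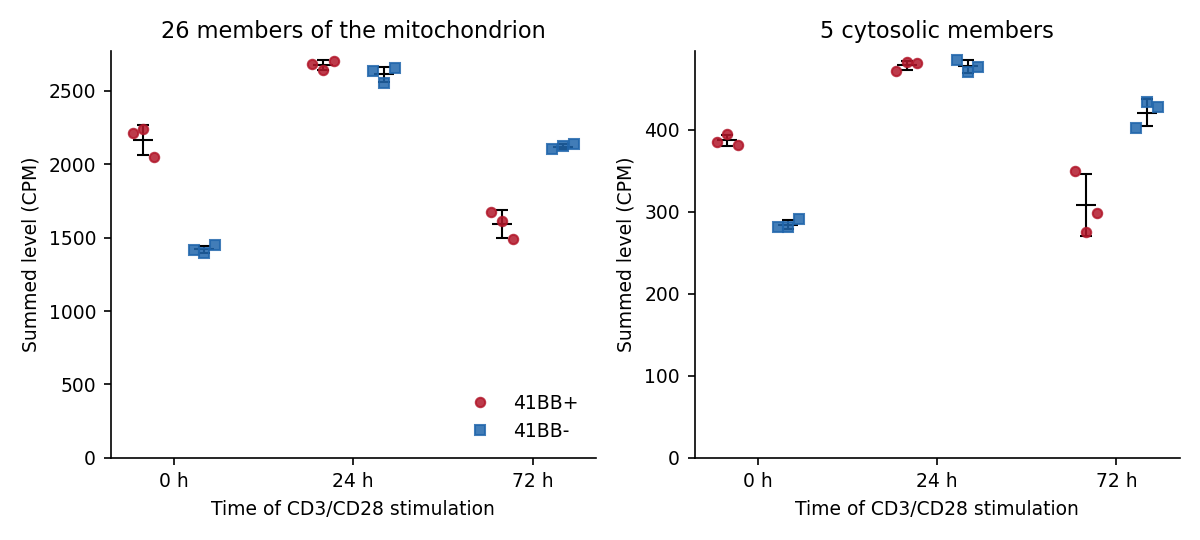
Summed CPM of the 26 genes of mitochondrial proteins (left) and the 5 genes of cytosolic proteins (right) at 0, 24 and 72 h; points are libraries, 41BB+ as circles and 41BB- as squares, with mean and SD of 3 libraries. At 0 h the mitochondrial sum ran from 2046 to 2238 CPM in 41BB+ libraries and from 1399 to 1448 CPM in 41BB- libraries, and at 72 h from 1488 to 1675 CPM in 41BB+ libraries and from 2104 to 2135 CPM in 41BB- libraries.

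Directly after the sort, 41BB+ cells held more transcript of most enzymes of the cycle than 41BB- cells. Of the 31 genes, 18 were higher in 41BB+ cells (58.1%) and 2 were lower (6.45%), where 22.2% of all genes tested were higher and 17.3% lower. Their median log2 fold change was 0.53, beside 0.01 over all genes tested. By role, 4 of 5 genes from citrate to oxoglutarate, 4 of 5 from oxoglutarate to succinate, both genes from fumarate to oxaloacetate, 3 of 4 genes of the pyruvate dehydrogenase complex and both genes of citrate export and cleavage were higher. The pyruvate carrier (Mpc1, Mpc2), pyruvate carboxylase (Pcx) and the malic enzyme Me2 did not pass the test.

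The enzymes that close the cycle were among those furthest apart at 0 h. Mdh2, the mitochondrial malate dehydrogenase, was at 317, 330.4 and 276 CPM in 41BB+ libraries 1 to 3, against 127, 115 and 114 CPM in 41BB- libraries, a log2 fold change of 1.36 (SE 0.11, adjusted p = 1.04e-10). All 3 41BB+ libraries lay far above the 41BB- libraries. Fumarate hydratase, Fh1, which makes the malate that Mdh2 uses, stood at 51, 55.8 and 52.9 CPM in 41BB+ libraries, against 12.4, 19.1 and 19.3 CPM in 41BB- libraries (log2 fold change 1.64, SE 0.19, adjusted p = 7.49e-08). The groups were again wholly apart. Cs, the citrate synthase that starts the cycle, was at 178, 163 and 149 CPM in 41BB+ libraries, against 90.8, 71.3 and 86.6 CPM in 41BB- libraries (log2 fold change 0.97, SE 0.12, adjusted p = 1.13e-07). Its lowest 41BB+ library was above its highest 41BB- library.

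The NAD-dependent isocitrate dehydrogenase is built of subunits encoded by Idh3a, which holds the catalytic site, and by Idh3b and Idh3g. Idh3a was at 119, 130.4 and 125 CPM in 41BB+ libraries at 0 h, against 44.3, 53.5 and 51.6 CPM in 41BB- libraries (log2 fold change 1.31, SE 0.14, adjusted p = 9.43e-09), with no overlap. Idh3b and Idh3g were higher by smaller amounts, at log2 fold changes of 0.72 and 0.62. Exons of Idh3b overlap those of Nop56, a ribosome biogenesis gene on the opposite strand, which stood at 367 ± 31 CPM in 41BB+ cells and 101 ± 4.53 CPM in 41BB- cells. The sources used here do not give the strand setting of the counting, and the part of Nop56 reads in the value of Idh3b was not tested. The NADP-dependent mitochondrial isocitrate dehydrogenase, Idh2, and its cytosolic counterpart, Idh1, went the other way. Idh2 was at 23.3, 43.8 and 35.5 CPM in 41BB+ libraries, against 40.3, 49.9 and 57 CPM in 41BB- libraries (log2 fold change -0.53, adjusted p = 0.0468), and the groups overlapped. Idh1 was at 4.42, 1.14 and 2.37 CPM in 41BB+ libraries, against 4.34, 5.83 and 9.05 CPM in 41BB- libraries (log2 fold change -1.30, adjusted p = 0.0465), also with overlap and on few counts. The call of Idh2 ended without 41BB+ library 1 (log2 fold change -0.32, adjusted p = 0.259), 41BB+ library 3 (0.0691), 41BB- library 2 (0.0881) or 41BB- library 3 (0.186). That of Idh1 ended without 41BB+ library 2 (adjusted p = 0.191), 41BB+ library 3 (0.109), 41BB- library 2 (0.0639) or 41BB- library 3 (0.211), and also with the experiment number as an additive block over all times (0.0501).

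Promoters of 4 of these genes are shown because the genes differed in opposite directions at 0 h: Mdh2, Fh1 and Cs, higher in 41BB+ cells, and Idh2, lower. Each is the RefSeq sequence on GRCm38.p6 from 250 bases before to 50 bases after the start of the gene, read 5′ to 3′ on the strand of the gene. Capitals mark CCAAT boxes (CCAAT, or ATTGG on the other strand) and GC boxes (GGGCGG, or CCGCCC on the other strand). The windows are chr5:135778399-135778698 on the plus strand for Mdh2, chr1:175625586-175625885 on the minus strand for Fh1, chr10:128337477-128337776 on the plus strand for Cs and chr7:80115301-80115600 on the minus strand for Idh2.
Mdh2: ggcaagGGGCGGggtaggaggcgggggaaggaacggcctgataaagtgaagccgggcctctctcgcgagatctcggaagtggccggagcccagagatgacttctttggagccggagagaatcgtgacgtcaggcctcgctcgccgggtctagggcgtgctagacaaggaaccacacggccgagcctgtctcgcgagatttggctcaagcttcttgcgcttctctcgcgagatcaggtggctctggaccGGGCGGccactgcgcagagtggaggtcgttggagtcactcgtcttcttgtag
Fh1: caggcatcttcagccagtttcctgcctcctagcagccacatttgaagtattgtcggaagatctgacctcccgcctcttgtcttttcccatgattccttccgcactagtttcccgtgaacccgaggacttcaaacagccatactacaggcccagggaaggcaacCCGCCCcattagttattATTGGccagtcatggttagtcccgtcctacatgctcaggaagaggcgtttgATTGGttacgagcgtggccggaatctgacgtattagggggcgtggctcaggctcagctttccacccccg
Cs: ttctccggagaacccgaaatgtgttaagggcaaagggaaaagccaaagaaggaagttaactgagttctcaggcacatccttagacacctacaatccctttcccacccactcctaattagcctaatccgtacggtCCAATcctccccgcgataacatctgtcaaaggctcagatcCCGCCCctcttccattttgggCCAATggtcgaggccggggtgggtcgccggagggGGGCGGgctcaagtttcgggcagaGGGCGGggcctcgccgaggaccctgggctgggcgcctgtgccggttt
Idh2: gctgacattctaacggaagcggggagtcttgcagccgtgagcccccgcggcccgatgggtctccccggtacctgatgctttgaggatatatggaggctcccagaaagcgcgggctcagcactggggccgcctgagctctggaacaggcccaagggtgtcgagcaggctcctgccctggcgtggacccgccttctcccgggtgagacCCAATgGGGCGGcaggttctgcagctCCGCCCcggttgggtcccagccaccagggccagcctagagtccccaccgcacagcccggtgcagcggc
The GC box was in all 4 windows, and the CCAAT box in those of Fh1, Cs and Idh2 but not in that of Mdh2. Over the 28 of the 31 genes with a promoter in the table, 18 windows held the CCAAT box (64.3%) and 20 the GC box (71.4%), beside 39% and 46.3% of 17492 promoters of protein-coding genes. Both strands were searched, and matches that share bases counted for both motifs. The E-box CACGTG was in 3 windows (10.7%, beside 7.9% of all), those of Pdk2, Pcx and Slc25a1. The palindromic motif of NRF1 was in 2 (7.14%, beside 6.6%), those of Dld and Sucla2, and the motif AAGGTCA of estrogen-related receptors in 1 (3.57%, beside 4.08%), that of Got1. A match describes the letters of a window and is neither a binding site nor a cause.

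In the pyruvate dehydrogenase complex at 0 h, the acetyltransferase core and the dihydrolipoamide dehydrogenase were higher in 41BB+ cells, and the decarboxylase subunits less or not. Dlat, the core, was at 62.2, 45.8 and 48.4 CPM in 41BB+ libraries, against 23.5, 29.8 and 24.7 CPM in 41BB- libraries (log2 fold change 0.99, SE 0.18, adjusted p = 6.09e-05). Dld, which the oxoglutarate dehydrogenase complex shares, was at 67.5, 84.1 and 77.6 CPM in 41BB+ libraries, against 41.2, 46.7 and 41.3 CPM in 41BB- libraries (log2 fold change 0.82, SE 0.13, adjusted p = 1.51e-05). Neither gene's groups overlapped. Pdhb, the beta decarboxylase subunit, had a log2 fold change of 0.51 (adjusted p = 0.015), a call that ended without 41BB+ library 2 (0.0842), 41BB- library 1 (0.0668) or 41BB- library 3 (0.0755). Pdha1, the alpha subunit and the site of regulatory phosphorylation, was at 113 ± 2.28 CPM in 41BB+ cells and 105 ± 12.5 CPM in 41BB- cells (log2 fold change 0.10, adjusted p = 0.588). Of the regulators, the inhibitory kinase Pdk3 was higher (log2 fold change 1.01, adjusted p = 0.000139), and the kinase Pdk2 (-0.34) and the phosphatase Pdp1 (-0.60), both under 20 CPM in every library at 0 h, did not pass the test. The carrier subunit Mpc2 was at 27.1, 34 and 26.3 CPM in 41BB+ libraries, against 11.8, 13.3 and 30.2 CPM in 41BB- libraries (log2 fold change 0.64, adjusted p = 0.0633). 41BB- library 3 lay among the 41BB+ libraries, and Mpc2 passed the test without 41BB- library 3 (adjusted p = 0.000716) and with the experiment number as a block within each time (0.0296).

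From oxoglutarate to succinate, Suclg1, the subunit shared by both succinyl-CoA ligases, was at 87.2, 103 and 83.6 CPM in 41BB+ libraries at 0 h, against 49.9, 40.8 and 50.7 CPM in 41BB- libraries (log2 fold change 0.94, SE 0.14, adjusted p = 3.96e-06), without overlap. Its ADP-forming partner Sucla2 (0.65) and GDP-forming partner Suclg2 (0.45) were also higher on the log2 scale, as was Dlst, the succinyltransferase of the oxoglutarate dehydrogenase complex (0.39). Ogdh, the decarboxylase of that complex, did not pass the test (0.18, adjusted p = 0.245). The call of Suclg2 (adjusted p = 0.0435) ended when any 1 of the 6 libraries at 0 h was left out, at adjusted p of 0.0509 to 0.259, and its log2 fold change was 0.29 without 41BB+ library 1. That of Dlst (adjusted p = 0.00972) ended without 41BB+ library 2 (0.0763) or 41BB- library 2 (0.0687).

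On the glutamate side, the mitochondrial aspartate aminotransferase Got2 was at 86.9, 105 and 102 CPM in 41BB+ libraries at 0 h, against 41.2, 51.5 and 39.2 CPM in 41BB- libraries (log2 fold change 1.15, SE 0.14, adjusted p = 9.55e-08). No library overlapped. Its processed pseudogene Got2-ps1 had 21.7 ± 4.05 CPM in 41BB+ cells and 10.3 ± 2.75 CPM in 41BB- cells, and the sources used here do not say how reads with several matches were counted. Glutamate dehydrogenase, Glud1, had a log2 fold change of -0.03 (SE 0.10). The cytosolic aminotransferase Got1 was higher (0.55, adjusted p = 0.026), a call that ended without any 1 of 5 of the 6 libraries (0.0514 to 0.212) and held only without 41BB- library 2. Its log2 fold change was 0.34 without 41BB- library 3. Cytosolic malate dehydrogenase, Mdh1 (0.35, adjusted p = 0.0501), and cytosolic aconitase, Aco1 (0.11), did not pass the test. For citrate leaving the matrix, the carrier Slc25a1 was at 16.5, 28.9 and 15.3 CPM in 41BB+ libraries, against 2.79, 5.19 and 8.45 CPM in 41BB- libraries (log2 fold change 1.86, SE 0.47, adjusted p = 0.00343). All 3 41BB+ libraries were above the 41BB- libraries, on few counts. ATP citrate lyase, Acly, which cleaves the exported citrate, was higher by 0.53 on the log2 scale (adjusted p = 0.00017).

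Marker lists and shares of counts at 0 h are given beside these results. The summed level of 8 T cell markers was 2711 to 2915 CPM in 41BB+ libraries and 3949 to 4211 CPM in 41BB- libraries, that of 6 B cell markers 95.2 to 98.4 CPM in 41BB+ libraries and 232 to 256 CPM in 41BB- libraries, and that of 4 stromal and endothelial markers 103 to 136 CPM in 41BB+ libraries and 208 to 262 CPM in 41BB- libraries. Of the B cell markers, Cd79a was at 0 in all 41BB+ libraries. Malat1, a nuclear RNA, took 0.371 ± 0.0336% of counts in 41BB+ cells and 0.736 ± 0.107% in 41BB- cells. The mitochondrial genome took 8.73 ± 0.0299% in 41BB+ cells and 9.73 ± 1.45% in 41BB- cells. Their part in the differences above was not tested.

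At 24 h of stimulation 2 of the 31 genes differed between the populations, both higher in 41BB+ cells (6.45%, where 1.67% of all genes tested were higher and 1.07% lower). No gene of the 31 was lower, by edgeR or DESeq2, and 0 had an unadjusted p under 0.05 in that direction. The median log2 fold change was 0.10, beside 0.02 over all genes tested. Pdha1 was at 210.3, 197 and 214 CPM in 41BB+ libraries, against 153, 152 and 180.1 CPM in 41BB- libraries (log2 fold change 0.47, SE 0.12, adjusted p = 0.0197). Dlst was at 197, 206 and 208 CPM in 41BB+ libraries, against 163, 165 and 165 CPM in 41BB- libraries (log2 fold change 0.43, SE 0.11, adjusted p = 0.0368). The groups did not overlap for either gene. The call of Dlst ended when any 1 of the 6 libraries was left out (adjusted p 0.0775 to 0.147). That of Pdha1 ended without 41BB+ library 1 (0.0774), 41BB+ library 3 (0.0982), 41BB- library 1 (0.119) or 41BB- library 2 (0.119), so that leaving out a library left 0 or 1 of the 31 genes called. Mdh2, at 342 ± 4.37 CPM in 41BB+ cells and 325 ± 23.4 CPM in 41BB- cells, and Idh3a, at 202 ± 6.25 CPM in 41BB+ cells and 192 ± 14.6 CPM in 41BB- cells, did not pass the test. Myeloid markers were summed to 63.9 CPM in 41BB+ library 2 and to 0 to 9.93 CPM in the other 5 libraries of this time. T cell markers summed to 1531 to 1631 CPM in 41BB+ libraries and 1961 to 1997 CPM in 41BB- libraries, and NK cell markers to 35.7 to 43.2 CPM in 41BB+ libraries and 55.2 to 74.4 CPM in 41BB- libraries. Malat1 took 0.137 ± 0.0115% of counts in 41BB+ cells and 0.22 ± 0.0461% in 41BB- cells. The part of these measures in the values at 24 h was not tested.

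At 72 h the order was turned round. Of the 31 genes, 15 were lower in 41BB+ cells (48.4%) and 0 were higher, where 12.2% of all genes tested were lower and 6.71% higher. DESeq2 also called 0 higher, and 2 had an unadjusted p under 0.05 in that direction in edgeR. The median log2 fold change was -0.43, beside -0.04 over all genes tested. The lower genes spanned the roles: Dlat and Pdha1 of the pyruvate dehydrogenase complex, its kinase Pdk3, Pcx, Cs, Idh3a, Dlst, Suclg1, Fh1, Mdh2, Mdh1, Got1, Got2, Acly and Me2.

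The smallest adjusted p at 72 h was that of Idh3a (chr9:54586334-54604661, GRCm38, plus strand), at 61.2, 47.7 and 48.5 CPM in 41BB+ libraries 1 to 3, against 116, 108 and 83.3 CPM in 41BB- libraries (log2 fold change -0.93, SE 0.14, adjusted p = 1.59e-05). Me2, the mitochondrial malic enzyme that turns malate into pyruvate, was at 77.9, 64 and 78.6 CPM in 41BB+ libraries, against 107, 140.1 and 177 CPM in 41BB- libraries (log2 fold change -0.91, SE 0.15, adjusted p = 0.000105). For both genes every 41BB+ library was below every 41BB- library. Pdha1 was at 86.4, 78.3 and 98.6 CPM in 41BB+ libraries, against 138, 149 and 144 CPM in 41BB- libraries (log2 fold change -0.67, SE 0.12, adjusted p = 0.000171). Got2 was at 86.4, 85.3 and 64.4 CPM in 41BB+ libraries, against 132, 128 and 139 CPM in 41BB- libraries (log2 fold change -0.73, SE 0.13, adjusted p = 0.000181). The groups did not overlap for either gene. Map3k15, whose exons overlap those of Pdha1 on the opposite strand, went the other way, at 11.6 ± 6.88 CPM in 41BB+ cells and 3.4 ± 1.63 CPM in 41BB- cells. Cs was at 126, 114 and 107 CPM in 41BB+ libraries, against 186, 161 and 171 CPM in 41BB- libraries (log2 fold change -0.54, SE 0.11, adjusted p = 0.00113). Mdh2 was at 202, 187 and 149.8 CPM in 41BB+ libraries, against 273, 256 and 256 CPM in 41BB- libraries (log2 fold change -0.51, SE 0.11, adjusted p = 0.00139). Both had all 41BB+ libraries below the 41BB- libraries. The calls of Idh3a, Me2, Pdha1, Got2, Cs and Mdh2 held under every alternative that was run.

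Calls of the other 9 genes at 72 h ended in some of the fits that left out 1 library, which have fewer libraries to test with. Acly was at 166, 142 and 162 CPM in 41BB+ libraries, against 211, 229 and 211 CPM in 41BB- libraries (log2 fold change -0.43, adjusted p = 0.0036), and Mdh1 at 102, 81.2 and 76.2 CPM in 41BB+ libraries, against 111, 129 and 149 CPM in 41BB- libraries (log2 fold change -0.55, adjusted p = 0.00465). Neither gene's groups overlapped, and Wdpcp, whose exons overlap those of Mdh1 on the opposite strand, stood at 7.59 ± 1.02 CPM in 41BB+ cells and 6.88 ± 5.69 CPM in 41BB- cells. The call of Acly ended without 41BB+ library 2 (0.0742) or 41BB- library 2 (0.0568). That of Mdh1 ended without 41BB+ library 2 (0.0513), 41BB+ library 3 (0.0554) or 41BB- library 3 (0.0897). Pcx, which makes oxaloacetate from pyruvate, was at 9.05, 6.11 and 9.97 CPM in 41BB+ libraries, against 18.7, 13.1 and 26.7 CPM in 41BB- libraries (log2 fold change -1.18, SE 0.41, adjusted p = 0.0436), a call that ended without any 1 of 5 of the 6 libraries (0.0693 to 0.273). For Fh1 (-0.50, adjusted p = 0.0479) leaving out any library ended the call (0.0706 to 0.28), and so did DESeq2 (0.057) and the experiment number as an additive block over all times (0.0566). Suclg1 (-0.51) lost its call without 41BB+ library 2 or 41BB- library 1 or 3 (0.0572 to 0.102), Pdk3 (-0.64) without 41BB+ library 2 or 3 or 41BB- library 3 (0.0945 to 0.209), and Got1 (-0.61) without 41BB+ library 2 or 3 or 41BB- library 1 or 2 (0.101 to 0.197). Dlat (-0.61) lost it without 41BB+ library 1 or 3 or 41BB- library 1 or 2 (0.0537 to 0.169), and Dlst (-0.40) without 41BB+ library 1 or 3 or any 41BB- library (0.0622 to 0.199). Without 41BB+ library 3 the log2 fold change was -0.40 for Dlat and -0.25 for Dlst, and without 41BB- library 3 it was -0.41 for Pdk3. In all, 8 of the 31 genes were called without 41BB+ library 2, 8 without 41BB+ library 3, 9 without 41BB- library 1 and 9 without 41BB- library 3. Over all genes tested, 1940, 1956, 1970 and 1923 genes were called in these fits in that order, in both directions together. With all libraries, 1602 were lower and 883 higher, so calls over all genes fell as well.

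Among the 16 genes that did not pass the test at 72 h, the kinase Pdk2 stood on the other side. It was at 6.58, 6.4 and 6.19 CPM in 41BB+ libraries, against 2.37, 2.33 and 3.54 CPM in 41BB- libraries (log2 fold change 1.24, SE 0.53, adjusted p = 0.109), without overlap but on few counts. Idh1 had a log2 fold change of 0.01, Idh2 of 0.18, Glud1 of 0.21 and Aco1 of 0.32. Idh3b (-0.09) and Idh3g (-0.10) did not pass the test either, while Nop56, which overlaps Idh3b, was at 55.6 ± 15.8 CPM in 41BB+ cells and 117 ± 18.1 CPM in 41BB- cells. Slc25a1 was at 17.8, 16.9 and 2.96 CPM in 41BB+ libraries, against 21.3, 20.9 and 25.7 CPM in 41BB- libraries (log2 fold change -0.83, adjusted p = 0.189), and 41BB+ library 3 was far below the other two.

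Marker lists stood apart at 72 h as well. T cell markers summed to 2911 to 3349.7 CPM in 41BB+ libraries and 2393 to 2859 CPM in 41BB- libraries, B cell markers to 531 to 592 CPM in 41BB+ libraries and 420.3 to 500.5 CPM in 41BB- libraries, and stromal and endothelial markers to 208 to 281 CPM in 41BB+ libraries and 106 to 122 CPM in 41BB- libraries. The mitochondrial genome took 10.9 ± 0.473% of counts in 41BB+ cells and 9.14 ± 0.373% in 41BB- cells. Malat1 took 0.223 ± 0.0311% in 41BB+ cells and 0.145 ± 0.0195% in 41BB- cells, the opposite order to 0 h. The part of these differences in the lower levels of the 15 genes was not tested.

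**Figure D2:**
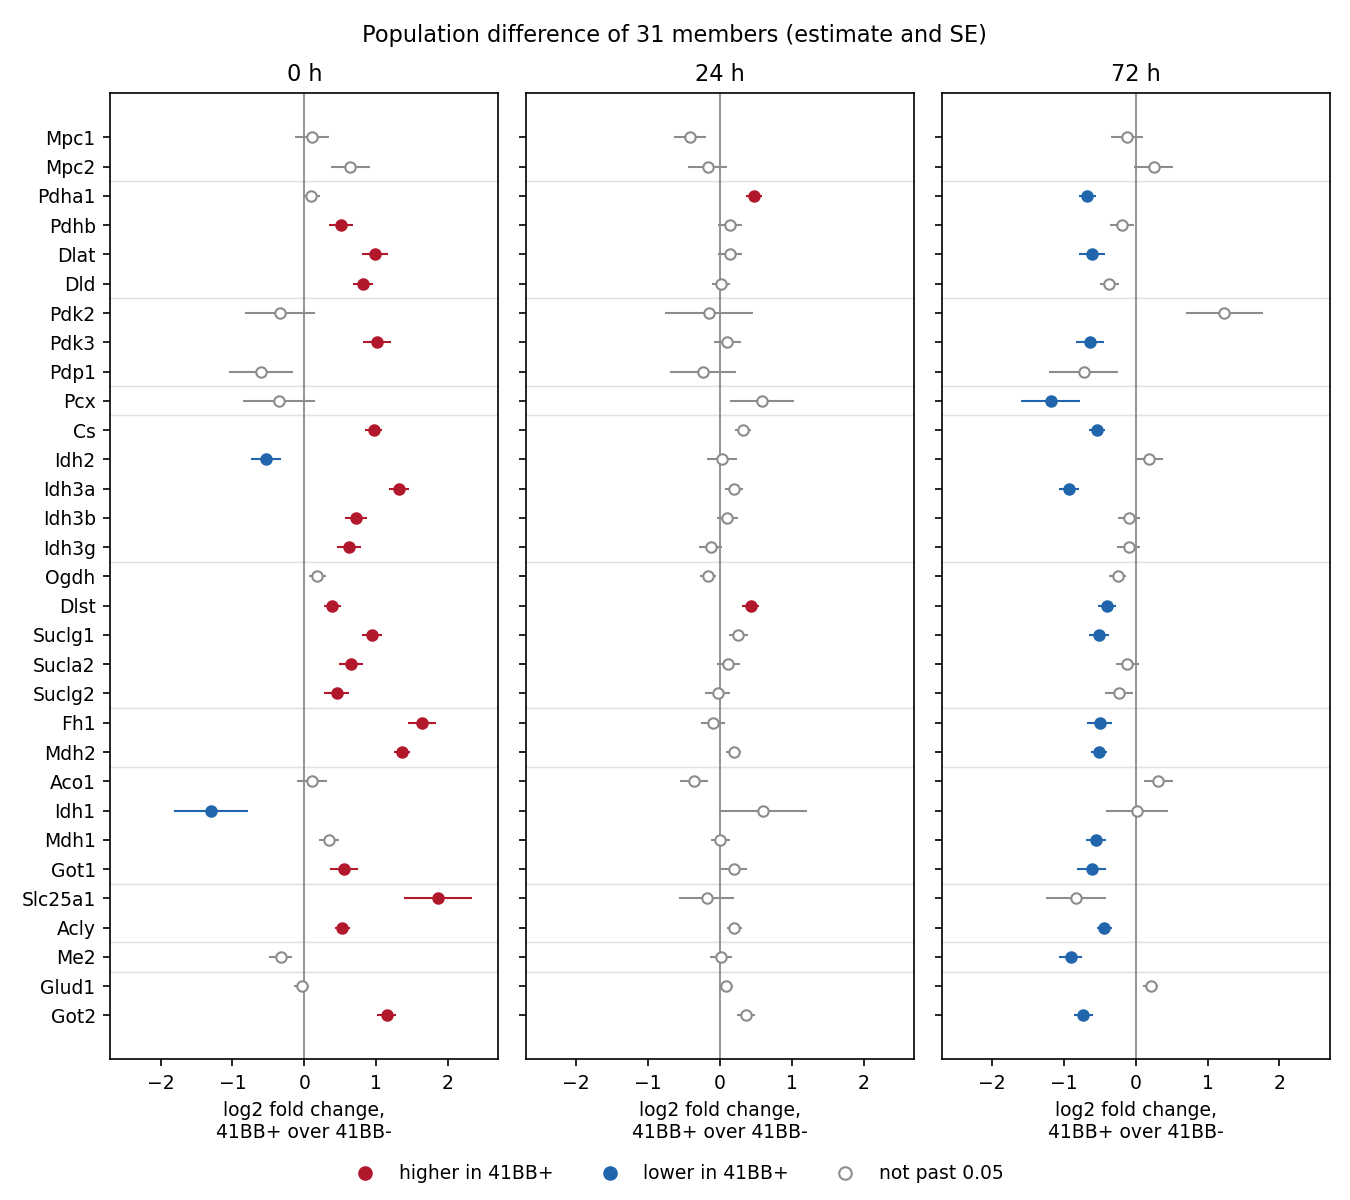
Log2 fold change of 41BB+ over 41BB- cells (horizontal axis) for the 31 genes (one line each, grouped by role) at 0, 24 and 72 h, with bars for the SE; filled points passed an adjusted p of 0.05. Filled points lie right of 0 for 18 genes at 0 h and 2 at 24 h, and left of 0 for 2 genes at 0 h and 15 at 72 h.

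The populations at 0 h and at 72 h share no library, so their calls can be set side by side. Of the 18 genes higher in 41BB+ cells at 0 h, 11 were lower in 41BB+ cells at 72 h (61.1%), and these 11 were 73.3% of the 15 lower at 72 h. They were Dlat, Pdk3, Cs, Idh3a, Suclg1, Fh1, Mdh2, Got1, Acly, Got2 and Dlst. Over all genes tested, 1237 genes did the same, which was 42.4% of the 2916 higher at 0 h and 77.2% of the 1602 lower at 72 h. The share of the 72 h calls was thus near the background. Of the 11 genes with both calls, Cs, Idh3a, Mdh2 and Got2 kept both under every alternative run. Each of the rest lost its call at 72 h under some alternative, Fh1 under 13 of 14. The other 7 genes higher at 0 h (Pdhb, Dld, Idh3b, Idh3g, Sucla2, Suclg2 and Slc25a1) were not called at 72 h. Pdha1, Pcx, Mdh1 and Me2 were called lower at 72 h without a call at 0 h, and Mpc1, Mpc2, Pdk2, Pdp1, Ogdh, Aco1 and Glud1 were called at no time.

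Within 41BB+ cells, 12 of the 31 genes rose between 0 h and 24 h (38.7%) and 2 fell (6.45%), where 18.1% of all genes tested rose and 16.5% fell. The median log2 fold change was 0.37, beside -0.06 over all genes tested. Pdha1 rose to 210.3, 197 and 214 CPM at 24 h, against 113, 115 and 111 CPM at 0 h (log2 fold change 0.93, SE 0.12, adjusted p = 3.59e-07), and the times did not overlap. The other genes with the smallest adjusted p were Got2 (0.86), Dlst (0.76), Idh3a (0.75) and Got1 (0.96), all log2 fold changes. Pdk2 fell by 2.11 on the log2 scale, to 2.27, 2.65 and 0.256 CPM at 24 h, against 9.43, 5.72 and 8.15 CPM at 0 h (adjusted p = 0.00422), without overlap. Suclg2 fell by 0.47 (adjusted p = 0.0378), a call that ended without any 1 of 5 of the 6 libraries (0.0662 to 0.305) and held without 41BB+ library 1 at 24 h. Its log2 fold change was -0.28 without 41BB+ library 1 at 0 h. The rise of Pcx (1.29, adjusted p = 0.0346) lost its call without 41BB+ library 1 (0.141) or 3 (0.0875) at 0 h or library 3 at 24 h (0.153). Mdh2 (0.20) and Fh1 (0.37) did not pass the test. Over the same interval in 41BB+ libraries, T cell markers summed to 1531 to 1631 CPM at 24 h, against 2711 to 2915 CPM at 0 h, B cell markers to 144 to 213 CPM at 24 h, against 95.2 to 98.4 CPM at 0 h and stromal and endothelial markers to 14.6 to 35.3 CPM at 24 h, against 103 to 136 CPM at 0 h. The share of counts from the mitochondrial genome was 6.52 ± 0.325% at 24 h, against 8.73 ± 0.0299% at 0 h, and that of Malat1 0.137 ± 0.0115% at 24 h, against 0.371 ± 0.0336% at 0 h. Their part in these changes was not tested.

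Within 41BB- cells the same interval moved more of the genes. Between 0 h and 24 h, 23 of the 31 rose (74.2%) and 2 fell (6.45%), where 29% of all genes tested rose and 27.6% fell. The median log2 fold change was 0.70, beside -0.07 over all genes tested. Idh3a rose to 206, 177 and 192 CPM at 24 h, against 44.3, 53.5 and 51.6 CPM at 0 h (log2 fold change 1.87, SE 0.14, adjusted p = 3.19e-12). Fh1 rose to 74.7, 65.5 and 91.2 CPM at 24 h, against 12.4, 19.1 and 19.3 CPM at 0 h (log2 fold change 2.11, SE 0.19, adjusted p = 2.2e-10). The times did not overlap for either gene. Mdh2 (1.37), Got2 (1.65) and Dld (1.26) had the other smallest adjusted p, and the largest log2 fold change was that of Slc25a1 (2.65, SE 0.46, adjusted p = 5.9e-05). Idh1 fell to 0.319, 1.18 and 2.84 CPM at 24 h, against 4.34, 5.83 and 9.05 CPM at 0 h (log2 fold change -2.18, adjusted p = 0.00144), and Pdk2 fell as well (-2.29, adjusted p = 0.000773). Without 41BB- library 3 at 24 h the log2 fold change of Idh1 was -2.96. Calls of 4 genes that rose ended without single libraries of 41BB- cells: Pdhb without library 1 (0.0675) or 3 (0.0821) at 0 h or 1 at 24 h (0.101), Glud1 without library 2 at 0 h (0.0641), Me2 without library 1 at 0 h (0.0526) or 2 at 24 h (0.0658), and Ogdh without library 3 at 0 h (0.0655) or 1 at 24 h (0.0619), all as adjusted p. In the same 41BB- libraries, T cell markers summed to 1961 to 1997 CPM at 24 h, against 3949 to 4211 CPM at 0 h, B cell markers to 128 to 160.3 CPM at 24 h, against 232 to 256 CPM at 0 h and stromal and endothelial markers to 35.2 to 43.4 CPM at 24 h, against 208 to 262 CPM at 0 h. The mitochondrial genome took 6.54 ± 0.334% at 24 h, against 9.73 ± 1.45% at 0 h, and Malat1 0.22 ± 0.0461% at 24 h, against 0.736 ± 0.107% at 0 h. Their part in these changes was not tested.

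Between 24 h and 72 h, 19 of the 31 genes fell in 41BB+ cells (61.3%) and 3 rose (9.68%), where 26.3% of all genes tested fell and 26.2% rose. The median log2 fold change was -0.60, beside 0.03 over all genes tested. Of the 31 genes, all 4 of the pyruvate dehydrogenase complex and all those from oxoglutarate to succinate and from fumarate to oxaloacetate were among the 19. Idh3a fell to 61.2, 47.7 and 48.5 CPM at 72 h, against 197, 200.4 and 209 CPM at 24 h (log2 fold change -1.88, SE 0.14, adjusted p = 2.61e-12). Got1 fell to 27.4, 19.8 and 22.9 CPM at 72 h, against 99.5, 75 and 83.3 CPM at 24 h (log2 fold change -1.81, SE 0.19, adjusted p = 6.63e-09). Neither overlapped between the times, and Dlst (-1.55), Pdha1 (-1.17) and Got2 (-1.06) had the other smallest adjusted p. Calls of 4 of the 19 ended in some of the fits that left out 1 library. Sucla2 (adjusted p = 0.0435) lost its call without any 1 of 5 of the 6 libraries (0.0635 to 0.239) and held it without 41BB+ library 2 at 24 h, and Ogdh (adjusted p = 0.0198) lost it without 41BB+ library 2 at 24 h (0.118) or 41BB+ library 3 at 72 h (0.0635). Me2 (adjusted p = 0.043) lost its call without 41BB+ library 1 or 2 at either time (0.0586 to 0.199), and Slc25a1 (adjusted p = 0.0208) without library 1 at 24 h (0.0896) or library 3 at 72 h (0.0533), where its log2 fold change was -0.71 in place of -1.18. The 3 that rose were Idh1 (2.76), Idh2 (0.84) and Pdk2 (1.95). Between these times in 41BB+ libraries, T cell markers summed to 2911 to 3349.7 CPM at 72 h, against 1531 to 1631 CPM at 24 h, B cell markers to 531 to 592 CPM at 72 h, against 144 to 213 CPM at 24 h, CD4 T cell markers to 29.9 to 53.5 CPM at 72 h, against 3.68 to 6.63 CPM at 24 h and stromal and endothelial markers to 208 to 281 CPM at 72 h, against 14.6 to 35.3 CPM at 24 h. The share of counts from the mitochondrial genome was 10.9 ± 0.473% at 72 h, against 6.52 ± 0.325% at 24 h, and that of Malat1 0.223 ± 0.0311% at 72 h, against 0.137 ± 0.0115% at 24 h. Their part in these changes was not tested.

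In 41BB- cells the second interval brought fewer and mixed changes. Of the 31 genes, 7 fell (22.6%) and 5 rose (16.1%), where 18.2% of all genes tested fell and 22.6% rose, and the median log2 fold change was -0.08, beside 0.04. Idh1 rose to 14.5, 13.1 and 13.4 CPM at 72 h, against 0.319, 1.18 and 2.84 CPM at 24 h (log2 fold change 3.34, SE 0.53, adjusted p = 9.45e-06). All 3 libraries at 72 h were above those at 24 h, where the counts were few, and without 41BB- library 3 at 24 h the log2 fold change was 4.11. Dlst (-0.73), Idh3a (-0.75), Suclg2 (-1.05) and Got1 (-0.9995) fell. Pcx rose to 18.7, 13.1 and 26.7 CPM at 72 h, against 4.47, 5.44 and 5.97 CPM at 24 h (log2 fold change 2.02, SE 0.43, adjusted p = 0.000366), without overlap. Idh2 (0.68), Mdh1 (0.54) and Me2 (0.54) also rose. Their calls ended without 41BB- library 1 at 24 h (Idh2 0.0734, Me2 0.0869), library 1 or 2 at 72 h (Idh2 0.0547 and 0.0638) or library 3 at 72 h (Mdh1 0.0524, Me2 0.157). Without library 3 at 72 h the log2 fold change of Me2 was 0.29. Cs (0.04), Mdh2 (-0.17) and Got2 (0.02) did not pass the test in this interval. Across the interval in 41BB- libraries, T cell markers summed to 2393 to 2859 CPM at 72 h, against 1961 to 1997 CPM at 24 h, B cell markers to 420.3 to 500.5 CPM at 72 h, against 128 to 160.3 CPM at 24 h, CD4 T cell markers to 43.7 to 50.6 CPM at 72 h, against 1.99 to 5.42 CPM at 24 h and stromal and endothelial markers to 106 to 122 CPM at 72 h, against 35.2 to 43.4 CPM at 24 h. The mitochondrial genome took 9.14 ± 0.373% at 72 h, against 6.54 ± 0.334% at 24 h, and Malat1 0.145 ± 0.0195% at 72 h, against 0.22 ± 0.0461% at 24 h. Their part in these changes was not tested.

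Libraries of a given number were not alike in Xist and Y-linked counts across times. Xist was at 0 CPM in both libraries 3 at 0 h and at 596 CPM in 41BB+ library 3 and 579.98 CPM in 41BB- library 3 at 72 h. At each time the 2 populations of a number were alike in both measures. Some libraries held both Xist and Y-linked counts. At 0 h, 41BB+ library 2 had Xist at 132 CPM and Y-linked genes at 128 CPM, and 41BB- library 2 had 131 and 174 CPM. At 72 h, 41BB- library 1 had Xist at 345 CPM and Y-linked genes at 85.6 CPM. Such libraries held RNA of both sexes. The part of the sex of the source in the changes over time, of the X-linked genes Pdha1, Pdk3 and Idh3g among others, was not tested.

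**Figure D3:**
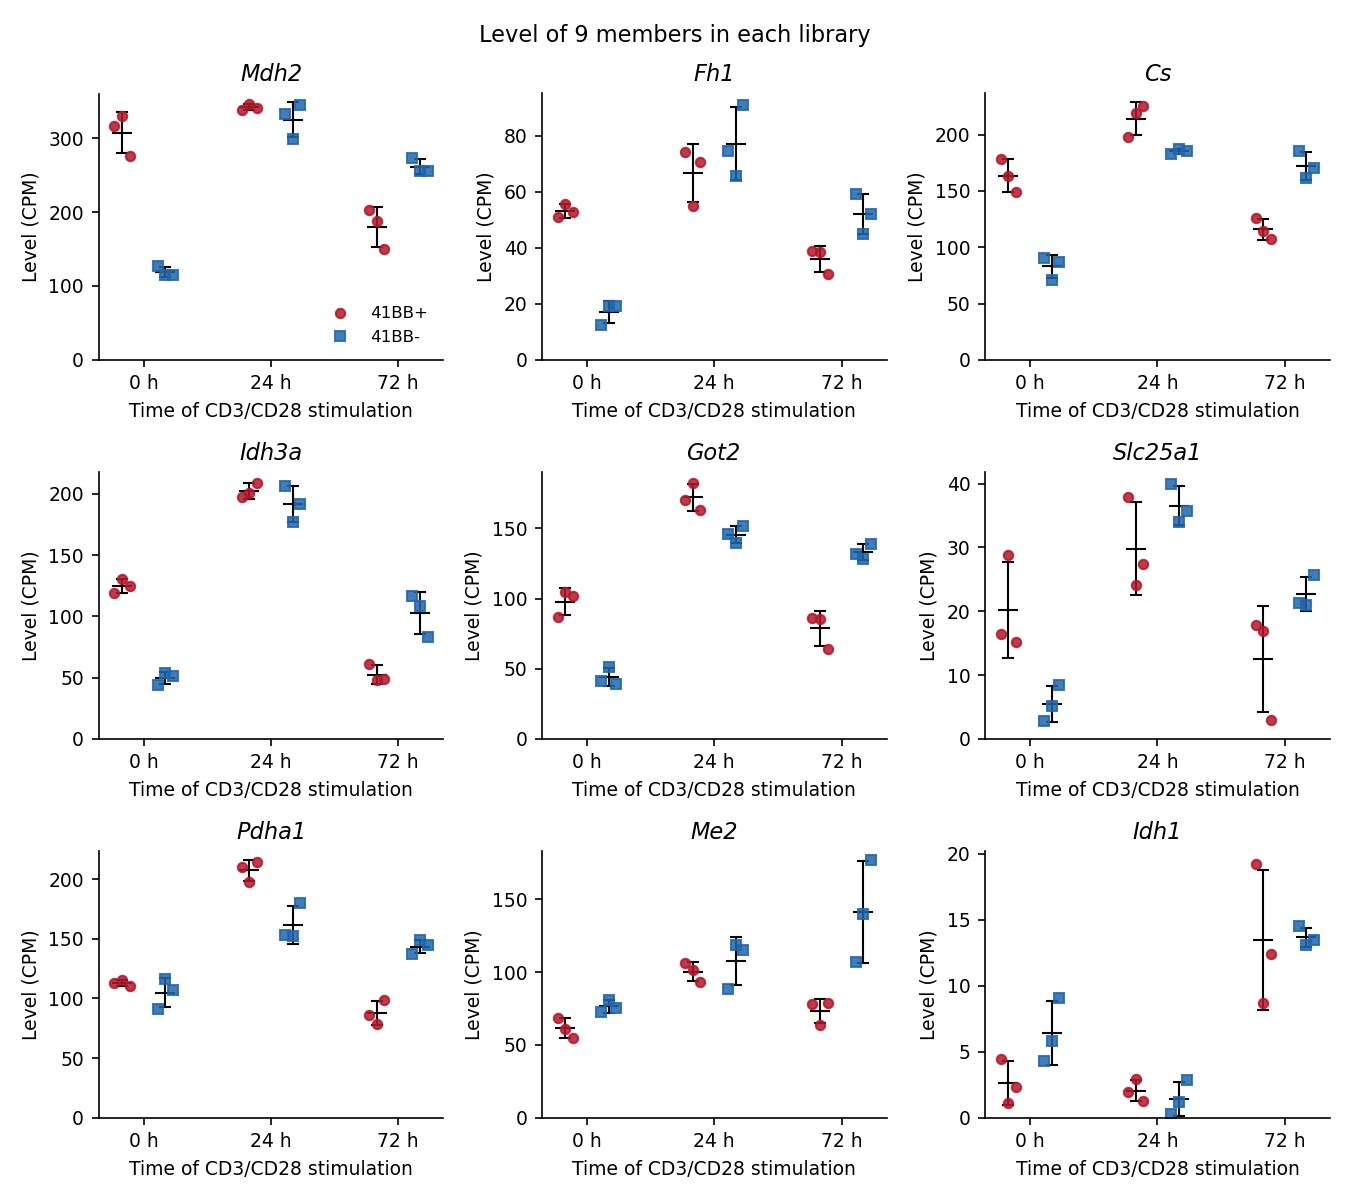
Level in CPM (vertical axis, from 0) of 9 genes in each library at 0, 24 and 72 h; circles are 41BB+ libraries, squares 41BB- libraries, and bars the mean and SD of 3 libraries. Mdh2, Fh1, Cs, Idh3a and Got2 are higher in 41BB+ libraries at 0 h and lower at 72 h without overlap, whereas Idh1 is at its highest in both populations at 72 h (13.4 ± 5.32 CPM in 41BB+ cells and 13.7 ± 0.731 CPM in 41BB- cells).

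The interaction of population and time tested whether the change over an interval differed between the populations. It is the population difference at the later time less that at the earlier time, shares their libraries and is not a separate result from them. Between 0 h and 24 h, 12 of the 31 genes had an interaction below 0 (38.7%) and 0 above it, where 14% of all genes tested were below and 9.03% above. Above 0, DESeq2 called 1 gene and edgeR had 2 with an unadjusted p under 0.05. The median was -0.48, beside -0.05 over all genes tested. Values below 0 mean that a gene rose less, or fell further, in 41BB+ cells. The smallest adjusted p were those of Mdh2 (-1.17, SE 0.15, adjusted p = 1.62e-06), Fh1 (-1.73, SE 0.26), Idh3a (-1.12, SE 0.19), Dld (-0.80, SE 0.18) and Got2 (-0.79, SE 0.19). All 12 were genes of mitochondrial proteins, as were 26 of the 31. The median interaction was -0.58 for these 26 and -0.34 for the 5 genes of cytosolic proteins. Of the 12 calls, 6 held under every alternative run, and that of Idh3b ended under 11 of 20 alternatives.

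Between 24 h and 72 h, 13 of the 31 genes had an interaction below 0 (41.9%) and 0 above it, where 11.4% of all genes tested were below and 6.1% above. DESeq2 also called 0 above, and edgeR had 1 with an unadjusted p under 0.05. The median was -0.56, beside -0.07 over all genes tested. Pdha1 (-1.15, SE 0.17, adjusted p = 1.6e-05), Idh3a (-1.12, SE 0.19), Got2 (-1.08, SE 0.18), Cs (-0.86, SE 0.16) and Dlst (-0.83, SE 0.17) had the smallest adjusted p. Without 41BB- library 1 at 24 h, 8 of the 31 genes were called in this interaction. Over all genes tested, 1776 were called in that fit, against 1495 below 0 and 802 above it with all libraries. Of the 13 calls, 8 held under every alternative run. Those of Mdh1, Dlat, Pcx and Got1 ended under 15, 11, 11 and 10 of 20 alternatives in that order.

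Over the whole course, 22 of the 31 genes had an interaction of population and time between 0 h and 72 h below 0 (71%) and 1 above it (3.23%), where 23.3% of all genes tested were below and 17.6% above. The median was -0.79, beside -0.04 over all genes tested. DESeq2 called 19 below 0 and 3 above it. Of the 23 edgeR calls, 16 held under every alternative run. Those of Suclg2, Me2, Ogdh, Pdhb and Idh3g, all below 0, ended under 16, 16, 15, 7 and 6 of 20 alternatives in that order. This interaction was added after the data were seen, and it shares its libraries with the population differences at 0 h and at 72 h given above. The largest below 0 with an adjusted p among the 5 smallest were Idh3a (-2.24, SE 0.19, adjusted p = 2e-10), Fh1 (-2.14, SE 0.26), Got2 (-1.87, SE 0.19), Mdh2 (-1.86, SE 0.16) and Cs (-1.50, SE 0.16). The 1 gene above 0 was Idh2 (0.71, adjusted p = 0.0499). Its call ended without 41BB+ library 1 at 0 h (0.114), 41BB- library 2 at 0 h (0.0533) or library 3 at 0 h (0.0963), 41BB+ library 1 (0.0811) or 2 (0.0691) at 72 h, or 41BB- library 3 at 72 h (0.0863).

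Levels were compared between genes per kilobase of exon, as CPM per kb. In 41BB+ cells at 0 h they ran from 0.649 for Pcx to 86.4 for Mdh2, and in 41BB- cells at 0 h from 0.818 for Pcx to 35.9 for Glud1, with Mdh2 next at 33.4. Mdh2 was the most abundant of the 31 transcripts per kilobase in the other 5 groups, at 96.1 in 41BB+ cells and 91.3 in 41BB- cells at 24 h and at 50.5 in 41BB+ cells and 73.4 in 41BB- cells at 72 h. In 41BB+ cells at 72 h Glud1, at 49.9, was within the spread of Mdh2. The subunits of a complex did not keep a fixed ratio. Idh3a over Idh3b, as a ratio of CPM per kb, ran from 0.723 to 0.992 in 41BB+ libraries and from 0.561 to 0.589 in 41BB- libraries at 0 h, from 1.4 to 1.49 in 41BB+ libraries and from 1.26 to 1.43 in 41BB- libraries at 24 h, and from 0.366 to 0.488 in 41BB+ libraries and from 0.649 to 0.875 in 41BB- libraries at 72 h. The ratio was thus highest at 24 h in both populations, and the populations were apart at 0 h and, in the opposite order, at 72 h. Over Idh3g, which has no overlapping gene, Idh3a ran from 0.958 to 1.2 in 41BB+ libraries and from 0.573 to 0.888 in 41BB- libraries at 0 h, and from 0.43 to 0.786 in 41BB+ libraries and from 0.866 to 1.01 in 41BB- libraries at 72 h, again with the order turned round. At 24 h Idh3a over Idh3g ran from 1.79 to 2 in 41BB+ libraries and from 1.31 to 1.62 in 41BB- libraries, also without overlap.

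Cytosolic over mitochondrial malate dehydrogenase, Mdh1 over Mdh2, ran from 0.445 to 0.478 in 41BB+ libraries and from 0.887 to 0.935 in 41BB- libraries at 0 h. At 24 h it ran from 0.36 to 0.379 in 41BB+ libraries and from 0.396 to 0.469 in 41BB- libraries, closer but without overlap. At 72 h it ran from 0.601 to 0.706 in 41BB+ libraries and from 0.565 to 0.81 in 41BB- libraries, and the populations overlapped. The aminotransferases Got1 over Got2 ran from 0.815 to 1.04 in 41BB+ libraries and from 1.05 to 1.53 in 41BB- libraries at 0 h, and from 0.441 to 0.676 in 41BB+ libraries and from 0.409 to 0.606 in 41BB- libraries at 72 h. The GDP-forming over the ADP-forming succinyl-CoA ligase subunit, Suclg2 over Sucla2, ran from 1.4 to 2.14 in 41BB+ libraries and from 1.82 to 2.18 in 41BB- libraries at 0 h, and from 0.429 to 0.756 in 41BB+ libraries and from 0.528 to 0.806 in 41BB- libraries at 72 h. In this pair the populations overlapped at both times and the times did not. Pdhb over Pdha1 ran from 0.446 to 0.516 in 41BB+ libraries and from 0.323 to 0.403 in 41BB- libraries at 0 h, and from 0.362 to 0.411 in 41BB+ libraries and from 0.269 to 0.286 in 41BB- libraries at 72 h, above the 41BB- libraries in all 41BB+ libraries. At 24 h it ran from 0.233 to 0.308 in 41BB+ libraries and from 0.301 to 0.398 in 41BB- libraries, so that the populations overlapped and the mean was lower in 41BB+ cells. Ratios are a description, with no test.

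**Figure D4:**
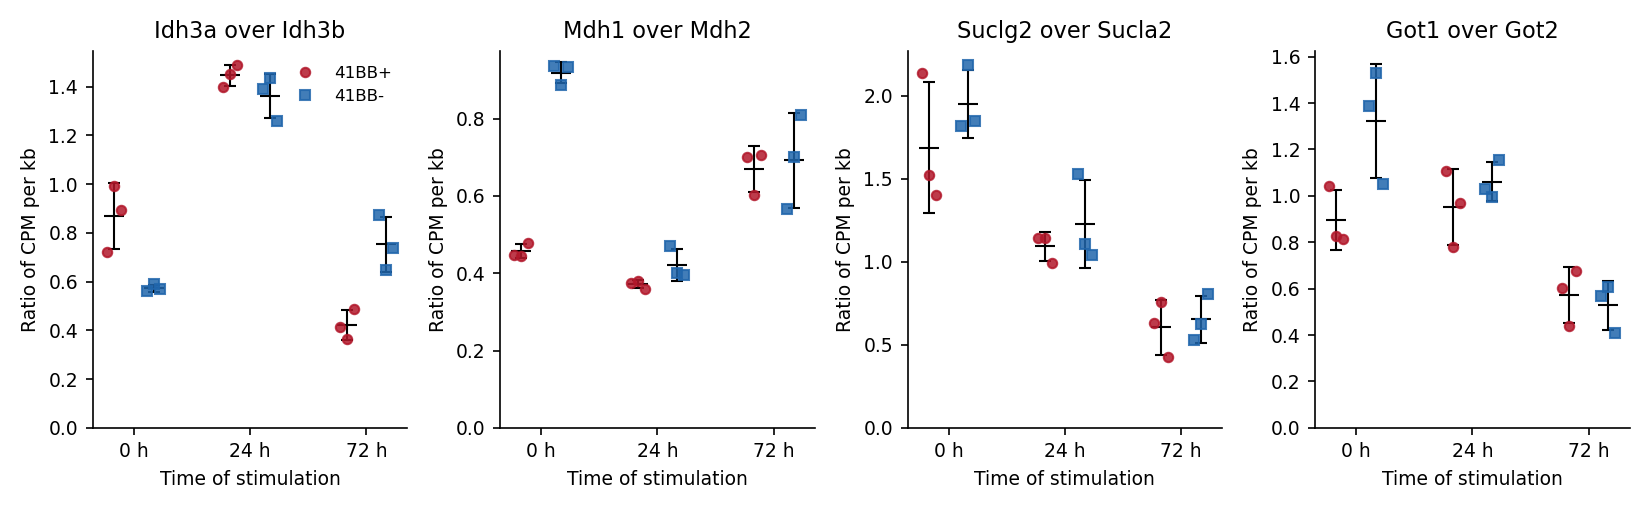
Ratio of CPM per kb (vertical axis, from 0) of 4 pairs of partner genes in each library at 0, 24 and 72 h; circles are 41BB+ libraries, squares 41BB- libraries, and bars the mean and SD of 3 libraries. Idh3a over Idh3b separates the populations at 0 h and 72 h, Mdh1 over Mdh2 at 0 h and 24 h, and Got1 over Got2 narrowly at 0 h. Suclg2 over Sucla2 is lower at 72 h than at 0 h in both populations.

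Other genes of the same pathways, from a list of 34 of which 33 were found and 28 tested, were read beside the 31. At 0 h, 11 of the 28 were higher in 41BB+ cells (39.3%) and 3 lower (10.7%), beside 22.2% higher and 17.3% lower over all genes tested, with a median log2 fold change of 0.31. All 4 subunits of succinate dehydrogenase, Sdha (0.36), Sdhb (0.82), Sdhc (0.63) and Sdhd (1.24), were higher on the log2 scale. Sdhd was at 46.8, 55.5 and 55.8 CPM in 41BB+ libraries, against 20.1, 17.5 and 28.4 CPM in 41BB- libraries (adjusted p = 5.75e-06). The glutamine transporter Slc1a5 (0.98, adjusted p = 5.78e-07) and the aspartate-glutamate carrier Slc25a13 (1.44, adjusted p = 1.09e-05) were higher too. Acss2, which makes acetyl-CoA from acetate, was lower, at 15.9, 11.7 and 12.6 CPM in 41BB+ libraries, against 58.6, 49.3 and 44.9 CPM in 41BB- libraries (log2 fold change -1.94, SE 0.23, adjusted p = 8.88e-08). Pdp2, Slc25a22 and Lias, for a phosphatase of pyruvate dehydrogenase, a glutamate carrier and lipoyl synthase, were among the 11. The call of Lias (adjusted p = 0.0478) ended without any 1 of the 6 libraries (0.0577 to 0.177) and by DESeq2 (0.0725). That of Slc25a22 ended without any 1 of 5 libraries (0.0547 to 0.11) and held without 41BB+ library 1, and that of Pdp2 ended without 41BB+ library 2 (0.108) or 3 (0.0614) or 41BB- library 1 (0.172). The other 2 lower genes were the kinase Pdk1 (-0.80) and the aspartate-glutamate carrier Slc25a12 (-0.65).

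At 24 h edgeR called 0 of the 28 genes and 3 had an unadjusted p under 0.05. Acss2 (-0.89, adjusted p = 0.0591) was called lower by DESeq2 (0.0311) and with the experiment number as a block within each time (0.0469), and D2hgdh without 41BB+ library 1 (0.022). At 72 h 6 of the 28 were lower in 41BB+ cells (21.4%, beside 12.2% of all genes tested) and 0 higher (beside 6.71%), by edgeR and DESeq2, with 0 at an unadjusted p under 0.05 in that direction. Sdha (-0.47), Sdhd (-0.73) and Slc25a13 (-1.02), with adjusted p of 0.00223, 0.00378 and 0.00189 in that order, were lower, as was Sdhc (-0.63). Without 41BB- library 2, 3 of the 28 genes were called, and Sdhd (adjusted p = 0.0811) and Sdhc (0.0508) were not. Over all genes tested, 1840 were called in that fit, against 1602 lower and 883 higher with all libraries. The call of Sdha ended without 41BB+ library 2 (0.0601) and that of Sdhc without 41BB+ library 1 (0.0892).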

How the data were processed

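CD8+ T cells sorted on CD137 (41BB) were sequenced as 18 total RNA libraries made with a stranded kit (the SMARTer Stranded Total RNA-Seq kit, version 2, per the labels). The authors deposited 1 table of read counts per gene. The submitters' processing notes name FastQC 0.11.9, Trimmomatic 0.38, HISAT2 2.2.1, featureCounts and the build GRCm38. How strand and reads with more than 1 match were handled in counting is not stated there. No table column belonged to other samples.

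Groups were taken from the titles, and gene symbols from GENCODE M21, which held 55227 of the 55487 IDs. The deposited counts were fitted over all 18 libraries with edgeR 4.0.16 (R 4.3.3) by the quasi-likelihood test, with 1 mean per group, filterByExpr (minimum count 10, minimum total 15), TMM factors, robust dispersions and Benjamini-Hochberg adjustment over 13150 genes. The common biological coefficient of variation was 0.18. CPM is the count over the library total, times 1e+06, and CPM per kb divides it by the exon length. Total counts were 3085241 to 4239795, and a member's count in a library was 1 to 1334 (median 216), so genes such as Idh1, Pcx and Pdk2 carry large errors. P-values measure the spread between these libraries. The chi-square per degree of freedom between replicates was 4.56 to 8.9, above sampling noise in every pair of replicates.

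Libraries of a group carry an experiment number in their titles. Deviations from the group means of 2 populations with the same time and number correlated with a median r of 0.107 over 9 pairs and 12686 autosomal genes (5 pairs above 0.1), against -0.0632 for other numbers of the same time and 0.0206 for the same number at other times. Deviations within a group cancel out by construction. The value for other numbers of the same time is therefore tied to that for the same number and is not separate evidence of pairing. The numbers were taken, from the titles and from Xist and Y-linked counts that matched within a time, to pair 41BB+ with 41BB- libraries of 1 time, but not libraries of different times. The planned fit, which has no block, was kept.

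Values in every library are given for the gene of each role with the largest population difference and for up to 8 genes with the smallest adjusted p at each time, and up to 5 genes are named with values for each interval and interaction. Of the related genes, up to 4 per time were named by smallest adjusted p; others complete a complex or a short count and were chosen after their values were seen. Some genes of these lists are not reported here. The 31 genes, the lists and the markers were chosen with earlier results of these data known. Alternatives were RLE factors, no filter, DESeq2 1.42.0, limma 3.58.1 voom with quality weights, blocks on the experiment number, removal of mitochondrial and ribosomal genes, only the compared groups, and each library left out. The procedure was also run on counts simulated from a baseline shared by all groups. That outcome is not reported here, and no value above rests on it. Promoters came from RefSeq on GRCm38.p6, and the figures from matplotlib 3.10.9.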

Additional observations from a re-analysis of the deposited data

Results flagged for a closer look

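The change over time differed between 41BB+ and 41BB- cells by edgeR's interaction test for several of the 31 genes. Each interaction shares its libraries with the population differences at the times it compares, given above, and is not a separate result from them. Between 0 h and 24 h, 12 genes were below 0, of which Mdh2 (-1.1699), Fh1 (-1.7319), Idh3a (-1.1191), Dld (-0.7974) and Got2 (-0.7889) had the smallest adjusted p (1.62e-06, 9.19e-06, 4.4e-05, 0.00183 and 0.00215 in that order). In all 5 the 41BB+ libraries were above the 41BB- libraries at 0 h, and the difference did not pass the test at 24 h.

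Between 24 h and 72 h, 13 genes were below 0. Pdha1 (-1.1465), Idh3a (-1.1232), Got2 (-1.0834), Cs (-0.8614) and Dlst (-0.8259) had the smallest adjusted p (1.6e-05, 8.17e-05, 8.87e-05, 0.000293 and 0.000679 in that order), and all of them fell in 41BB+ cells.

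Between 0 h and 72 h, 22 genes were below 0 and 1, Idh2, above it. Mdh2 (-1.8646), Idh3a (-2.2423), Got2 (-1.8723), Cs (-1.5033) and Fh1 (-2.1382) had the smallest adjusted p (1.15e-10, 2e-10, 3.8e-09, 1.49e-08 and 1.35e-07 in that order). In all 5 the 41BB+ libraries were above the 41BB- libraries at 0 h and below them at 72 h.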

How the results depend on the processing

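Over 10 comparisons, 158 of 310 results for the 31 genes passed the threshold, and 110 of these did so under every alternative run. The other 48 lost their call under at least 1 alternative, 24 of 152 gained one, and 0 changed sign as called results. Kept under every alternative were 14 of 20 calls at 0 h, 0 of 2 at 24 h and 6 of 15 at 72 h. At 24 h the count of called genes was 0 with no filter on low counts, where more genes were tested, and 0 to 1 when a library was left out. At 72 h it was 8 with only the compared groups in the fit, which has fewer libraries, and 8 to 11 when a library was left out. Leaving out a library gave 15 to 17 at 0 h, 8 to 13 for the interaction of 0 h to 24 h, 8 to 12 for that of 24 h to 72 h and 17 to 20 for that of 0 h to 72 h. Over all genes tested it gave 4471 to 4807 at 0 h, 181 to 261 at 24 h and 1840 to 2307 at 72 h. For the interactions in that order it gave 2547 to 2914, 1772 to 2315 and 5003 to 5336. With all libraries, the genes higher and lower were 2916 and 2276 at 0 h, 220 and 141 at 24 h and 883 and 1602 at 72 h. The genes above and below 0 were 1187 and 1839, 802 and 1495, and 2318 and 3060 for the interactions. With the experiment number as a replicate block within each time, the counts were 21 at 0 h, 2 at 24 h and 15 at 72 h. That block lost 0 calls of the 31 genes and gained 2, Mpc2 at 0 h and Pdk3 in the interaction of 24 h to 72 h (0.0408). With the number as an additive replicate block over all times, 2 calls were lost, Idh1 at 0 h and Fh1 at 72 h, and 1 was gained, Mpc2 at 0 h. The median log2 fold change of all genes passed 0.1 in size only for 24 h against 0 h in 41BB- cells, at -0.11 with RLE factors or DESeq2 and -0.12 with no filter, against -0.07. The median of the 31 genes was then 0.66 and 0.78, against 0.70. Counts under 20 per library in some groups limit what can be seen for Idh1, Pcx, Pdk2, Pdp1 and Slc25a1.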
